A study of Homo sapiens with 12 samples.

Results

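The AP-1 and EGR immediate early factors were followed as a family of 10 named genes, FOS, FOSB, FOSL1, FOSL2, JUN, JUNB, JUND, EGR1, EGR2 and EGR3, taken by name. Of these, 9 had at least 1 probe set naming that gene alone, among 11963 genes measured, and EGR2 was not analysed here. The cells were RCC4, a line from a renal cell carcinoma that lacks functional VHL, the protein that marks hypoxia-inducible factors for degradation. RCC4 cells with an empty vector (Vec) and RCC4 cells reconstituted with VHL (VHL) each spent 6 h either in full DMEM with 10% fetal bovine serum (control) or in DMEM without cystine with 10% dialysed serum (deprived). Dialysis is given for the deprived medium only, so a change of serum may run with the loss of cystine and cannot be told apart from it. There were 3 arrays in each of the 4 groups. They are labelled as biological replicates, but separate cultures are not named, so p-values measure only the spread between these arrays. The labels do not say whether the VHL cells were 1 clone or a pool, so a difference between the lines may include differences between the cultures they were made from.

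AP-1 is a pair of bZIP proteins bound through a leucine zipper. JUN proteins pair with each other or with FOS proteins, which do not pair among themselves, and the pair binds a short element known as the TPA response element. The EGR proteins are zinc finger factors that bind GC-rich sites. FOS, FOSB, JUN, JUNB, EGR1, EGR2 and EGR3 are immediate early genes, switched on within minutes of a growth factor or stress signal through MAP kinases, serum response factor (SRF) and its partners such as ELK1, and most of these transcripts decay within a few hours. FOSL1 and FOSL2 usually rise later and last longer, and JUND is present in most resting cells. A sample taken at 6 h therefore shows levels after any first wave of such a response.

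RefSeq promoter sequences on GRCh38.p14 were found for 8 of the 10 genes, not for FOSL1 or EGR3. That of EGR2 was not searched for motifs, since EGR2 was not analysed here. The 250 bases upstream of the start are shown for EGR1, which rose most on deprivation in VHL cells, and for JUN and JUND, which differed between the lines in opposite directions. Capitals mark matches on either strand to the CArG box bound by SRF, the TPA response element TGANTCA, the cyclic AMP response element TGACGTCA, the EGR site GCGNGGGCG and TGACATCA, a variant element known from the JUN promoter, which was added after the sequences were seen.
EGR1, chr5:138465229-138465478, plus strand: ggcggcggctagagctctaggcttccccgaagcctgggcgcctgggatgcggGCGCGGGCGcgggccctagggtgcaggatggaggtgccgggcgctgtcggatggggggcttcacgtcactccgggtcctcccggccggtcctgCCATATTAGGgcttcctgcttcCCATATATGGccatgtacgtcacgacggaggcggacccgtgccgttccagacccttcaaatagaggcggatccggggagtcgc
JUN, chr1:58784048-58784297, minus strand: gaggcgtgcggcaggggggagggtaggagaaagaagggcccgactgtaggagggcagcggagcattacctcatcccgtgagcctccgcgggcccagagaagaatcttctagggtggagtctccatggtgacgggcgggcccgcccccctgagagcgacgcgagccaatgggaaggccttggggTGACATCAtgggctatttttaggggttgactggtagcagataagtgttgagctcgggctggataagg
JUND, chr19:18281623-18281872, minus strand: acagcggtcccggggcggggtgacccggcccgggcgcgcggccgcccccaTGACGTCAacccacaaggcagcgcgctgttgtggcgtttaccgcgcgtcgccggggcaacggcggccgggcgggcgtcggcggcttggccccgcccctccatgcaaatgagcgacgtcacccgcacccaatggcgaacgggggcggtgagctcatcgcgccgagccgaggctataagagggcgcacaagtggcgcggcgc

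The EGR1 window held 2 CArG boxes, CCATATTAGG ending 96 bases before the start and CCATATATGG ending 74 bases before it, and 1 EGR site. A CArG box was found in 1.16% of the 35116 promoter windows of the same length, and the EGR site in 8.41%. The JUN window held 1 TGACATCA, found in 2.37% of windows, and the JUND window 1 TGACGTCA, found in 1.65%. The windows of FOS, FOSB, FOSL2 and JUNB held none of these 5 motifs, and TGANTCA, found in 6.57% of all windows, was in none of the member windows searched. Bases outside these windows were not searched, so a motif missing from a window may still lie farther upstream of the gene. A match is a run of letters and does not show binding.

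All values are log2 expression values as deposited, and a gene is called when limma's p-value, adjusted by Benjamini-Hochberg over the 11963 genes, is under 0.05. A gene counts as dim when its mean over the 12 arrays is at or under 6.46, the level below which 40% of probe sets lie. Array medians lay between 7.12 and 7.18. The renal epithelial factors PAX8 and PAX2, the keratins KRT8 and KRT18 and vimentin were above the dim level, while the proximal tubule markers LRP2, CUBN, AQP1, SLC34A1 and ANPEP were dim. Of other cell types, 5 of 7 blood, 7 of 7 endothelial and 6 of 7 fibroblast markers were dim. The mean level per array of the blood markers lay between 5.56 and 5.79, of the endothelial markers between 5.40 and 5.50, of the fibroblast markers between 5.61 and 5.71 and of the renal markers between 8.67 and 8.76. The dim probe set of VHL (mean 5.94) gave 0.14 ± 0.05 for VHL against Vec cells in control medium (limma adjusted p = 0.0532), so it does not check that VHL was put back. In RNA from whole cultures, fewer cells expressing a gene and less RNA per cell cannot be told apart.

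On cystine deprivation 5 of the 9 measured members rose in VHL cells and 1 rose in Vec cells, and none fell in either. In VHL cells EGR1 rose 1.47-fold, FOSL1 1.31-fold, FOSB 1.26-fold, JUNB 1.25-fold and FOSL2 1.19-fold. In Vec cells FOSL1 rose 1.26-fold. JUN, JUND, FOS and EGR3 passed the test in neither line. Of all genes 11.6% were called on deprivation in VHL cells, 6.16% higher and 5.48% lower, and 4.18% in Vec cells, 2.11% higher and 2.06% lower. The median difference of the members was 0.25 in VHL cells and 0.13 in Vec cells, against 0.01 over all genes in each. At an unadjusted p under 0.05, 1 member was lower in VHL cells, JUND, and 0 in Vec cells. The arrays of the media did not overlap for 6 members that were higher and 1 that was lower in VHL cells, beside 16.5% and 14.0% of all genes, and for 4 and 2 members in Vec cells, beside 11.9% and 10.7%.

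EGR1, the zinc finger factor that gives the EGR family its name, gave 7.63, 7.88 and 7.59 on the VHL control arrays and 8.23, 8.37 and 8.17 on the VHL deprived arrays. Every deprived array was above every control array. The difference was 0.56 ± 0.08 (log2, SE, 95% interval 0.38 to 0.74, limma adjusted p = 0.001, n = 3 per group). In Vec cells EGR1 was at 8.51, 8.40 and 8.26 in control medium and at 8.54, 8.54 and 8.53 in deprived medium. The Vec groups did not overlap either, but they lay next to each other, with a difference of 0.15 ± 0.08 (limma adjusted p = 0.41).

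FOSL1 encodes FRA-1, a FOS relative without the C-terminal activation domain of FOS. Its control arrays read 10.20, 10.12 and 10.25 in Vec cells and its deprived arrays 10.51, 10.57 and 10.48. In VHL cells the control arrays read 9.74, 9.61 and 9.79 and the deprived arrays 10.19, 10.14 and 9.98. Deprived arrays were above control arrays throughout in both lines. The rise of FOSL1 was 0.33 ± 0.07 for Vec (limma adjusted p = 0.015). For VHL it was 0.39 ± 0.07 (limma adjusted p = 0.00254), and no other member was called in both lines. The Vec call was lost without Vec control replicate 1 (adjusted p = 0.0512) or 2 (0.063) or without Vec deprived replicate 2 (0.0657). Over all its alternatives the adjusted p in Vec cells ran from 0.00108 to 0.0657.

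FOSB, the FOS relative that in neurons builds up as a long-lived short form, read 7.08, 7.30 and 7.25 in VHL control and 7.62, 7.51 and 7.50 in VHL deprived cells. It rose by 0.34 ± 0.07 (limma adjusted p = 0.00593), with no overlap between the groups. In Vec cells it read 7.73, 7.55 and 7.59 in control and 7.83, 7.83 and 7.79 in deprived medium. Those groups did not overlap, and the difference of 0.20 ± 0.07 was not called (limma adjusted p = 0.133).

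JUNB, a JUN protein that activates less strongly than JUN and can oppose it, read 8.26, 8.08 and 8.24 in VHL control and 8.62, 8.46 and 8.45 in VHL deprived cells. It rose by 0.32 ± 0.08 (limma adjusted p = 0.0229). In Vec cells JUNB gave 0.25 ± 0.08 (limma adjusted p = 0.111), from 8.12, 8.20 and 8.30 to 8.50, 8.56 and 8.30. The VHL call was lost without VHL control replicate 2 (adjusted p = 0.0895) or VHL deprived replicate 1 (0.0891), over a range of 0.00652 to 0.0895.

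FOSL2, which encodes FRA-2, read 8.31, 8.05 and 8.14 in VHL control and 8.45, 8.37 and 8.44 in VHL deprived cells, and rose by 0.25 ± 0.07 (limma adjusted p = 0.0334). This was the least firm of the 5 calls. It was kept with 1 of 6 arrays left out, VHL control replicate 1, and lost without each of the others (adjusted p up to 0.129), and also with arrays centred on their medians (0.0599) and with a fit of the VHL arrays alone (0.0748). In Vec cells FOSL2 gave 0.13 ± 0.07 (limma adjusted p = 0.399), and the groups overlapped.

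The remaining members showed no called change. JUN, the main activating JUN protein, read 11.76, 11.83 and 11.82 in Vec control and 11.72, 11.70 and 11.72 in Vec deprived cells, a difference of -0.09 with a 95% interval from -0.21 to 0.03 (limma adjusted p = 0.46). In VHL cells JUN gave 0.05, with an interval from -0.07 to 0.17 (limma adjusted p = 0.634). For this probe set neither interval reaches 1.26-fold, the size of the FOSL1 rise in Vec cells. The other JUN probe sets gave 0.05 ± 0.07, 0.19 ± 0.07 and 0.32 ± 0.16 in VHL cells, none called. Over all its probe sets, a JUN rise of that size in VHL cells is therefore not excluded. JUND was at -0.07 ± 0.05 in Vec cells and at -0.13 ± 0.05 in VHL cells (limma adjusted p = 0.541 and 0.119). Its deprived arrays lay below its control arrays in both lines, with Vec arrays of both media at 10.71 after rounding. FOS, the founding FOS gene, is dim, with values from 6.13 to 6.45 in the control and 6.26 to 6.44 in the deprived groups of both lines, and gave 0.13 ± 0.08 in Vec and 0.02 ± 0.08 in VHL cells (limma adjusted p = 0.468 and 0.928). EGR3, an EGR factor induced by growth and antigen receptor signals, is dim too, with values from 4.22 to 4.60, and gave 0.02 ± 0.07 and 0.16 ± 0.07 (limma adjusted p = 0.943 and 0.17). Dim values cannot show that these transcripts did not change.

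**Figure D1:**
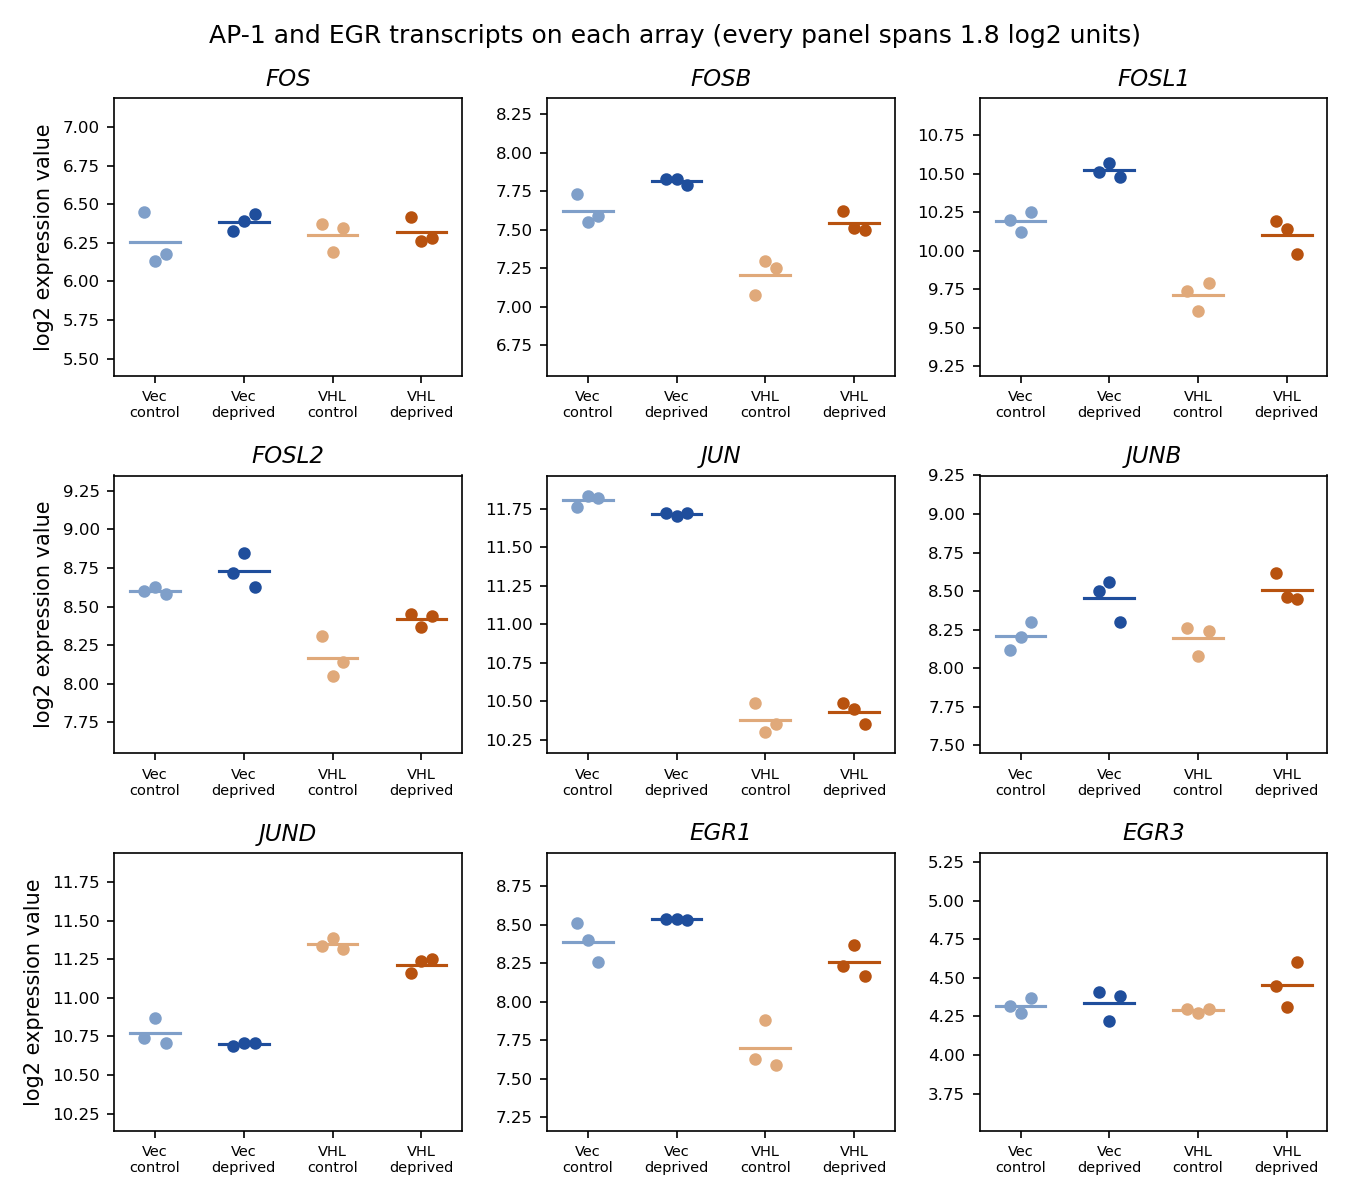
Log2 expression value of each measured member (vertical axis, every panel with the same span) on the 3 arrays of each group (points, with the group mean as a line). JUN and JUND separate by cell line in opposite directions, FOSL1 and EGR1 shift between media as well, and the dim transcripts FOS and EGR3 stay within 6.13 to 6.45 and 4.22 to 4.60.

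**Figure D2:**
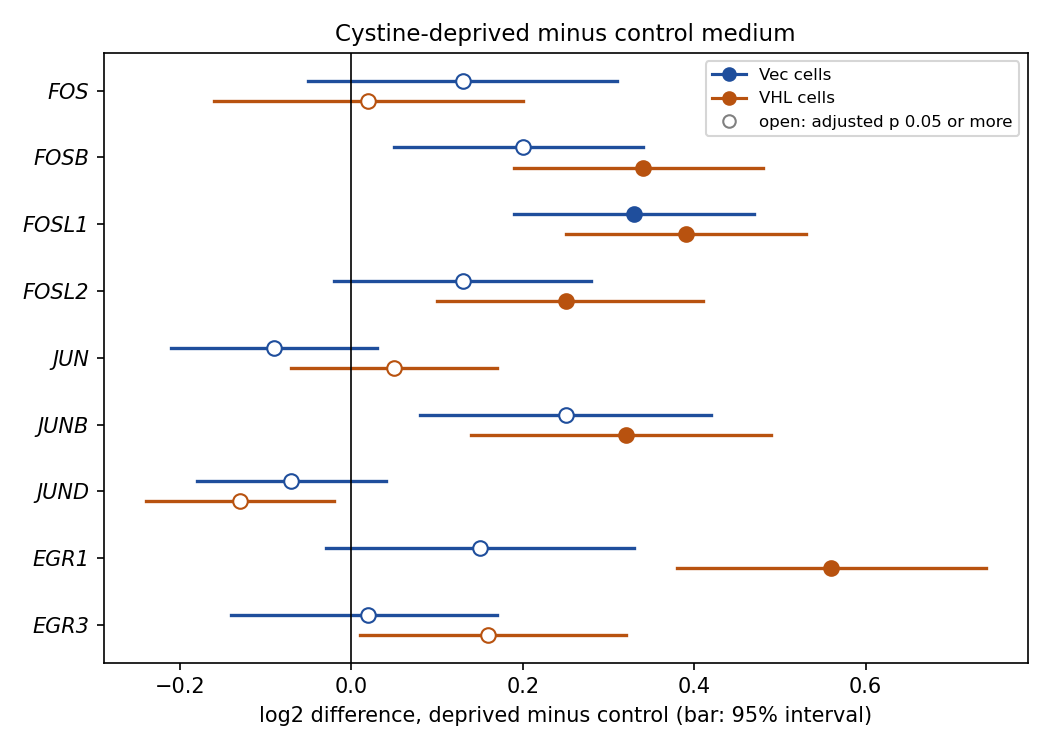
Difference between deprived and control medium for each member in Vec cells (blue) and VHL cells (orange), on the log2 scale, with 95% confidence intervals as bars. Filled points have a limma adjusted p under 0.05: FOSL1 in both lines, and EGR1, FOSB, JUNB and FOSL2 in VHL cells.

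Whether the deprivation response differed between the lines was tested directly, as the response in VHL cells minus that in Vec cells. The test called none of the 9 members by limma, against 0.134% of all genes, 0.125% higher and 0.00836% lower, and 1 at an unadjusted p under 0.05. That member was EGR1, at 0.41 ± 0.12 (unadjusted p = 0.00436, limma adjusted p = 0.298, 95% interval 0.15 to 0.66). Its adjusted p lay between 0.15 and 0.522 over the alternatives. For the other members the differences ran from -0.12 for FOS to 0.14 for FOSB, JUN and EGR3. That more members were called in VHL than in Vec cells is therefore not a difference shown between the lines.

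**Figure D3:**
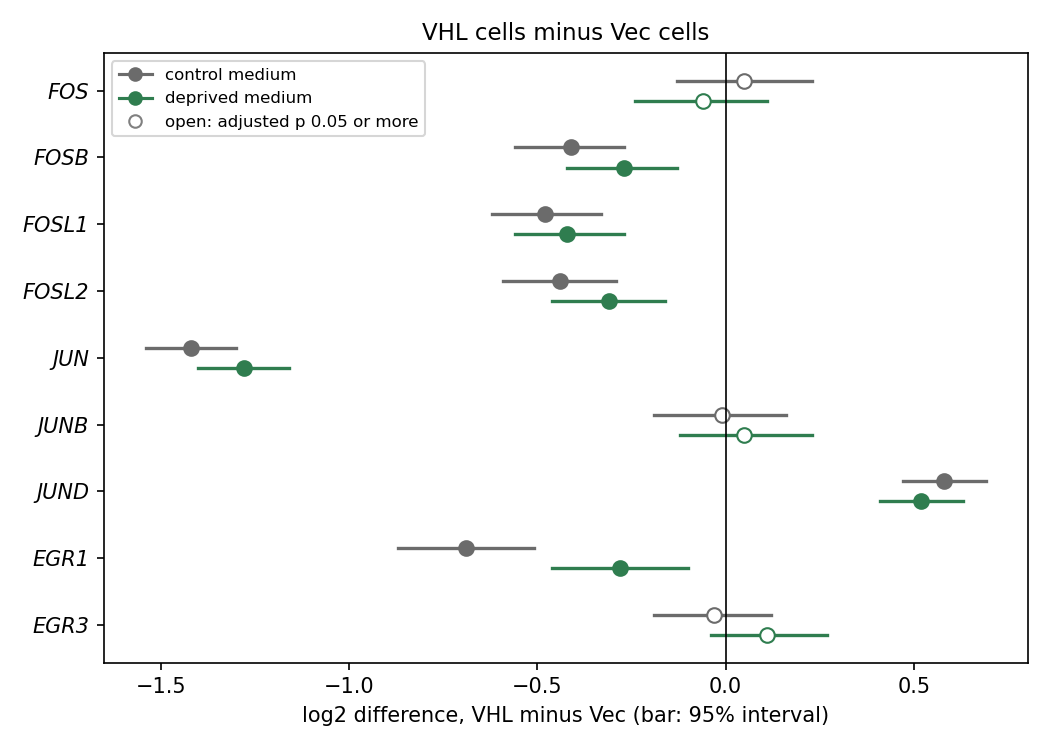
Difference between VHL and Vec cells for each member in control medium (grey) and deprived medium (green), on the log2 scale, with 95% confidence intervals as bars and filled points for a limma adjusted p under 0.05. JUN lies at -1.42 and -1.28, JUND at 0.58 and 0.52, and the intervals of FOS, JUNB and EGR3 include 0 in both media.

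Between the lines 6 of the 9 members differed. In control medium 5 members were lower in VHL than in Vec cells (JUN, EGR1, FOSL1, FOSL2 and FOSB), JUND was higher, and FOS, JUNB and EGR3 were not called. The same 6 were called in deprived medium, in the same directions. These counts have a high background: 46.1% of all genes were called between the lines in control medium, 23.0% lower and 23.1% higher in VHL cells, and 47.2% in deprived medium, 23.0% lower and 24.2% higher. The arrays of the lines did not overlap for 5 members lower and 1 higher in each medium, beside 26.5% and 26.7% of all genes in control and 26.4% and 27.9% in deprived medium. The median of the members was -0.41 in control and -0.27 in deprived medium, against 0 over all genes.

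JUN showed the largest difference of the members. In Vec cells its 6 arrays lay between 11.70 and 11.83, and in VHL cells between 10.30 and 10.49, so the lines lay far apart in both media. VHL cells were 2.67-fold lower in control medium (-1.42 ± 0.06, limma adjusted p = 3.51e-10). After deprivation they were 2.43-fold lower (-1.28 ± 0.06, limma adjusted p = 8.93e-10). JUND, often described as opposing JUN in growth control, ran the other way. It read 10.74, 10.87 and 10.71 in Vec control cells and 11.34, 11.39 and 11.32 in VHL control cells, a 1.49-fold higher level (0.58 ± 0.05, limma adjusted p = 7.01e-07), and was 1.43-fold higher in deprived medium (0.52 ± 0.05, limma adjusted p = 1.93e-06).

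EGR1 was 1.61-fold lower in VHL cells in control medium (-0.69 ± 0.08, limma adjusted p = 1.21e-05). After deprivation it was 1.22-fold lower (-0.28 ± 0.08, limma adjusted p = 0.0127). The second call was lost without VHL deprived replicate 3 (adjusted p = 0.0562), over a range of 0.00378 to 0.0562. The 3 FOS relatives were lower by like amounts. FOSL1 gave -0.48 ± 0.07 in control and -0.42 ± 0.07 in deprived medium (limma adjusted p = 4.27e-05 and 0.000138). FOSL2 gave -0.44 ± 0.07 and -0.31 ± 0.07 (limma adjusted p = 0.000147 and 0.00223), and FOSB -0.41 ± 0.07 and -0.27 ± 0.07 (limma adjusted p = 0.000139 and 0.00355). JUNB gave -0.01 with a 95% interval from -0.19 to 0.16 in control medium and 0.05 with an interval from -0.12 to 0.23 in deprived medium. The dim EGR3 gave 0.11 in deprived medium (limma adjusted p = 0.225), and passed the test without VHL deprived replicate 2 (0.185, adjusted p = 0.0471).

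The order of the group means differed between members. EGR1, FOSB, FOSL1 and FOSL2 were highest in Vec deprived cells, then in Vec control cells, then in VHL deprived cells, and lowest in VHL control cells. For EGR1, FOSB and FOSL1 the middle pair overlapped: VHL deprived arrays ran from 8.17 to 8.37 for EGR1, from 7.50 to 7.62 for FOSB and from 9.98 to 10.19 for FOSL1, and Vec control arrays from 8.26 to 8.51, 7.55 to 7.73 and 10.12 to 10.25. For FOSL2 the middle pair did not overlap, with VHL deprived arrays at 8.37 to 8.45 and Vec control arrays at 8.58 to 8.63. JUNB was ordered by medium, with means of 8.51 in VHL deprived, 8.46 in Vec deprived, 8.21 in Vec control and 8.19 in VHL control cells, and arrays of like medium overlapped. JUN and JUND were ordered by line, and the VHL control and VHL deprived arrays of JUN overlapped.

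Members with more than 1 probe set allow a check within the array, here with p-values adjusted over all 22215 probe sets. All 4 probe sets of JUN were lower in VHL cells in control medium, at -1.42, -1.40, -1.62 and -1.53, and in deprived medium, at -1.28, -1.38, -1.38 and -1.11, each with a limma adjusted p of at most 5.72e-05. On deprivation none of the 4 was called in either line, with differences from -0.10 to 0.32. The probe set with the largest error gave 0.32 ± 0.16 in VHL cells (limma adjusted p = 0.239). All 3 probe sets of JUND were higher in VHL cells in both media, the 2 dim ones by 0.18 to 0.47. On deprivation in VHL cells the dim probe sets of JUND gave 0.03 each, where the main one gave -0.13.

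EGR1 had a second, dim probe set with a smaller rise in VHL cells, 0.18 ± 0.08, which was not called (limma adjusted p = 0.217). That probe set was lower in VHL cells in both media, at -0.37 and -0.28 (limma adjusted p = 0.00231 and 0.0154). The other probe sets of FOSL2 gave 0.21 ± 0.07 and 0.10 ± 0.05 in VHL cells on deprivation and were not called (limma adjusted p = 0.0944 and 0.282). One of them was not called between the lines in either medium (-0.13 and 0.05, limma adjusted p = 0.202 and 0.617), and with the mean of the FOSL2 probe sets the deprived-medium difference was no longer called (-0.136, limma adjusted p = 0.0537, over a range of 0.000614 to 0.0537). The rise of EGR1 and of FOSL2 on deprivation was called on the probe set chosen for each gene and not on its others.

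Genes whose group means followed each called member most closely were found by the root mean square difference (log2) between the 4 group means, each gene centred on its own mean, over 7986 other genes above the dim level. For EGR1 they were BCL2L2, a survival protein, at 0.0292, NUDT13 at 0.0523 and ATF4, the transcription factor of the amino acid response, at 0.0544. ATF4 gave 0.11 in Vec and 0.44 in VHL cells on deprivation, beside 0.15 and 0.56 for EGR1. For FOSL1 they were YARS1, the tyrosyl-tRNA synthetase, at 0.0379, EIF2S2, a subunit of the translation initiation factor eIF2, at 0.0435, and CDK17 at 0.0469. For JUN they were SETBP1 at 0.016, TCF4, a helix-loop-helix factor, at 0.0251, and CORO2B at 0.0287, with VHL against Vec differences in control medium of -1.43, -1.39 and -1.45 in turn. JUND was nearest to NPAS2, RPP25 and HIP1, at up to 0.0121. FOSB was nearest to ZNF202, TJAP1 and RFC1, FOSL2 to RFTN1, TXNRD2 and PPIE, and JUNB to ING3, XAF1 and MAK16, at up to 0.022. With only 4 means per gene, many genes share any one pattern.

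Of the other bZIP proteins that can pair with FOS or JUN proteins, 10 of 15 were measured. ATF3, a stress-induced partner of JUN, rose in both lines, by 0.82 ± 0.07 in Vec and 1.58 ± 0.07 in VHL cells (limma adjusted p = 1.37e-05 and 1.12e-08), and its responses differed between the lines by 0.76 ± 0.10 (limma adjusted p = 0.00523). In VHL cells the small MAF proteins MAFF and MAFG also rose, at 0.69 and 0.36, and ATF2 and CREB5 fell by 0.44 and 0.36 (-0.44 and -0.36). Higher calls numbered 1 of the 10 in Vec cells and 3 in VHL cells, beside 2.11% and 6.16% of all genes. Lower calls numbered 0 and 2, beside 2.06% and 5.48%. The list medians were 0.04 and 0.03, against 0.01 over all genes in each. Between the lines in control medium MAFF was lower in VHL cells at -2.26 ± 0.10, ATF3 at -1.40 ± 0.07 and BATF3 at -0.35, while MAF was higher at 1.63 ± 0.15, with CREB5 at 0.38 and MAFG at 0.23. These were 3 lower and 3 higher of the 10, beside 23.0% and 23.1% of all genes. The list median there was -0.03.

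NAB1 and NAB2 are co-repressors that bind EGR proteins, and NAB2 is itself induced by EGR1. NAB2 gave 0.07 ± 0.06 in Vec and -0.06 ± 0.06 in VHL cells on deprivation (limma adjusted p = 0.648 and 0.587). NAB1 fell in VHL cells (-0.26 ± 0.07, limma adjusted p = 0.0335). In VHL against Vec cells NAB2 was lower in both media, at -0.42 ± 0.06 and -0.55 ± 0.06 (limma adjusted p = 0.000118 and 9.16e-06), as EGR1 was.

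Of the kinases and SRF partners upstream of the members, 23 were measured. On deprivation 1 fell in Vec cells, MAP3K5, a stress kinase, at -0.33, and 2 rose in VHL cells, MAPK10 at 0.26 and RPS6KA5, a histone kinase, at 0.20, beside 4.18% and 11.6% of all genes called. At an unadjusted p under 0.05, 6 were lower and 0 higher in Vec cells, and 7 were lower and 2 higher in VHL cells. SRF gave -0.05 and -0.09 and ELK1 0.09 and -0.20 in Vec and VHL cells, none called. Between the lines in control medium 10 of the 23 were lower and 5 higher in VHL cells, beside 23.0% and 23.1% of all genes. SRF itself gave -0.82 ± 0.05 (limma adjusted p = 1.32e-08), MAP2K1, which activates ERK, -0.81 ± 0.05, ELK1 -0.68 ± 0.08 and RPS6KA3 -0.56 ± 0.05, while MAP2K6, which activates p38, gave 1.27 ± 0.09 and RPS6KA1 0.85 ± 0.07.

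Among other immediate early genes, many rose on deprivation. Of 28 measured, 9 rose in Vec and 13 in VHL cells, beside 2.11% and 6.16% of all genes called higher. None fell by limma, with 1 lower in each line at an unadjusted p under 0.05. KLF4, a zinc finger factor, rose by 1.30 and 1.56, CCN2, a matricellular protein, by 0.46 and 0.98, and PHLDA1 by 0.53 and 0.40. The repressor NFIL3 rose by 0.19 and 0.40. The difference between the lines was called for ATF3 and CCN2 (0.52 ± 0.09, limma adjusted p = 0.0345). In control medium 17 of the 28 were lower and 4 higher in VHL cells, with a median of -0.39, beside 23.0% and 23.1% of all genes. DUSP1, a MAP kinase phosphatase, gave -1.74 ± 0.05, NFIL3 -1.09 ± 0.04, CCN2 -1.09 ± 0.06 and GEM -1.25 ± 0.07. ATF3 stands in both this list and that of bZIP partners, DUSP1 also in that of MAP kinase feedback genes and HBEGF also in that of AP-1 targets. NAB2 is counted among the EGR1 targets as well, so the list counts are not independent.

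**Figure D4:**
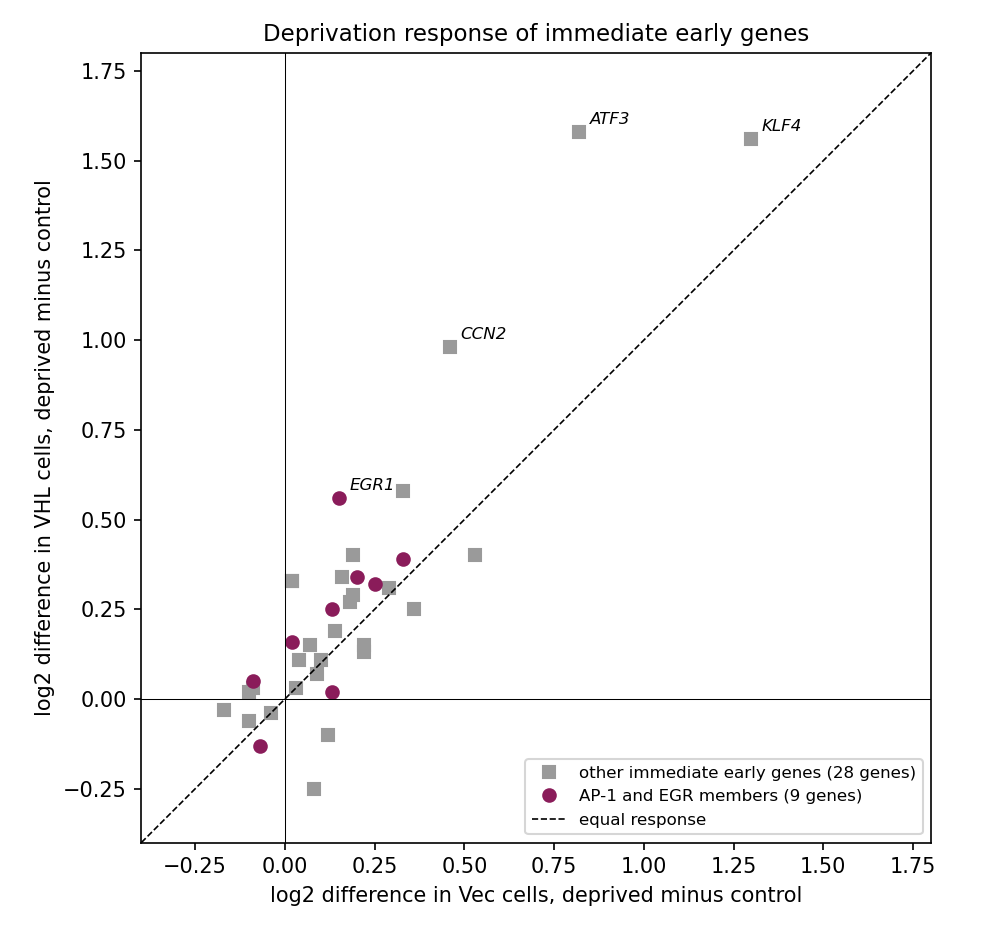
Deprivation response in Vec cells (horizontal axis) and VHL cells (vertical axis), as log2 differences between deprived and control medium, for the 9 members (circles) and the 28 other immediate early genes (squares), with equal responses on the dashed line. EGR1, at 0.15 and 0.56, lies farthest above the line among the members, and ATF3, KLF4, CCN2 and IER3, at 1.58, 1.56, 0.98 and 0.58, lie above all members on the vertical axis.

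The phosphatases and Sprouty proteins that damp MAP kinase signalling had 2 of 12 higher on deprivation in Vec cells, beside 2.11% of all genes. They were DUSP6 at 0.52 and DUSP10 at 0.31. In VHL cells 4 rose, DUSP6 at 0.64, DUSP1 and SPRY2 at 0.33 and DUSP10 at 0.31, and DUSP7 fell (-0.54). The shares of all genes called there were 6.16% higher and 5.48% lower. The difference in response was called by limma for 0 of the 12, beside 0.134% of all genes. At an unadjusted p under 0.05, 3 were higher and 2 lower. In control medium 10 of the 12 were lower and 2 higher in VHL cells, beside 23.0% and 23.1% of all genes. The lower ones were led by DUSP1 and by SPRY2 at -1.38 ± 0.06, DUSP5 at -1.93 ± 0.10 and DUSP7 at -1.65 ± 0.11. The higher ones were DUSP4 and DUSP8.

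Genes known as AP-1 targets did not move as 1 group. On deprivation PLAU, the urokinase protease, was the 1 of 21 called higher in Vec cells (0.50 ± 0.11, limma adjusted p = 0.0212), beside 2.11% of all genes. PLAU rose in VHL cells too, by 0.48 ± 0.11 (limma adjusted p = 0.013). In VHL cells 7 rose, PLAU among them, beside 6.16% of all genes called higher. They included the cytokines CXCL8, IL6, LIF and IL11 at 2.16, 1.07, 0.41 and 0.57 and VEGFA, an angiogenic factor, at 0.75. CD44, a hyaluronan receptor, fell (-0.25), beside 5.48% of all genes called lower. The difference in response between the lines was called by limma for 0 of the 21, beside 0.134% of all genes. At an unadjusted p under 0.05, 5 were higher and 2 lower. CXCL8 gave 0.55 ± 0.21 on deprivation in Vec cells (limma adjusted p = 0.19). The collagenase MMP1 gave 0.05 and -0.19, the stromelysin MMP3 0.07 and 0.08 and PLAUR, the urokinase receptor, 0.12 and -0.13 in Vec and VHL cells, none called. Between the lines in control medium 12 of 21 were lower and 4 higher in VHL cells, beside 23.0% and 23.1% of all genes. The median was -0.59. CXCL8, IL6, LIF, IL11 and VEGFA, which rose in VHL cells on deprivation, were among the lower, at -3.39, -2.12, -1.07, -3.2 and -1.34. In deprived medium they were still lower in VHL cells, at -1.78, -1.37, -0.76, -2.93 and -0.86. TIMP1, an inhibitor of matrix proteases, gave -1.26 ± 0.04, PLAU -2.18 ± 0.11, CCND1 -1.50 ± 0.08 and PLAUR -1.35 ± 0.11. Higher in VHL cells were MMP1 at 2.53 ± 0.09, HMGA1, a chromatin protein, at 1.29 ± 0.07, the dim MMP10 at 0.63 and MMP3 at 0.35.

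Of genes known as EGR1 targets, 13 were measured. GDF15, a stress-induced secreted factor, rose by 1.08 in Vec and 0.92 in VHL cells and ICAM1, an adhesion molecule, by 0.54 and 0.58. In VHL cells F3, the tissue factor of coagulation, also rose, by 0.40, and PDGFA, a platelet-derived growth factor chain, fell (-0.30). Higher calls numbered 2 of the 13 in Vec cells and 3 in VHL cells, beside 2.11% and 6.16% of all genes. The 1 lower call in VHL cells stood beside 5.48% of all genes. The limma test of the difference in response called 0 of the 13, beside 0.134% of all genes. At an unadjusted p under 0.05, 1 was higher and 2 lower. In control medium 5 of the 13 were lower and 4 higher in VHL cells, beside 23.0% and 23.1% of all genes. F3 gave -3.19 ± 0.10, TGFB1 -0.93 ± 0.06 and MMP14 -0.68 ± 0.07, while GDF15 gave 1.31 ± 0.06 and the dim PDGFB 0.85 ± 0.10. The members of both target lists are targets of other factors too, and no binding was measured.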

How the data were processed

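RNA was measured on 12 arrays with a biotin label. The deposited table holds log2 expression values for 22215 probe sets on each array, a unit read from the values since the authors' normalization is not given in the sources used here. They were used as deposited. Of the probe sets, 19064 named 1 gene, 1043 several and 2108 none, and symbols were updated through RefSeq for 19052. Where a gene had several probe sets, that of highest mean was used. One mean per group was fitted in limma 3.58.1 under R 4.3.3. The residual degrees of freedom were 8, and moderation brought them to 12.7. Tests were two-sided, errors after ± are standard errors, and no set test was run. The code was tested on simulated data.

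The members and lists were chosen with earlier results of these data known. Named genes were all members, up to 4 called genes per list and comparison by smallest adjusted p, 9 further fixed genes, and the 3 nearest genes to each called member, of which the text gives the main ones. CREB5, IL11, CD44, DUSP4, DUSP8, HMGA1, MMP10 and PDGFB were named after their values were seen, and IER3 also falls outside this rule. The alternatives were quantile normalization, median centring, leaving out dim genes, averaging probe sets within a gene, adjustment over every probe set, leaving out probe sets ending in _x_at or _s_at, a fit of the compared groups, robust moderation with a trend, the replicate number as a block, and each array left out. Residuals of arrays sharing a replicate number correlated between -0.268 and 0.235 (18 pairs, median 0.0526). Those of other pairs correlated between -0.350 and 0.291 (36 pairs, median -0.0179). These overlapping ranges cannot exclude pairing. Arrays were treated as unpaired because the labels do not say what a shared number means. No pair of arrays held identical values.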

Additional observations from a re-analysis of the deposited data

How the results depend on the processing

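The calls of FOSB, FOSL1 and EGR1 on deprivation in VHL cells, and those of JUN, JUND, FOSL1 and FOSB between the lines in both media, held in every alternative that could be fitted for them. With _x_at and _s_at probe sets left out, EGR1 and JUND have no value. With an array left out, members called on deprivation numbered 0 to 1 in Vec and 3 to 5 in VHL cells, and members called between the lines in deprived medium 5 to 7. With the replicate block, members called stayed at 1, 5, 0, 6 and 6 in the 5 comparisons, and all genes called at 434, 1326, 16, 5517 and 5664, and no member's call changed. Counts over all genes moved more. With an array left out they ran from 253 to 303 in Vec cells (500 with all arrays) and from 764 to 1302 in VHL cells (1392). Without _x_at and _s_at probe sets, where fewer genes were tested, they were 233 and 771 on deprivation and 3427 and 3505 between the lines (5520 and 5650 with all probe sets). With only the compared groups they were 311 and 835, and with a variance trend 45 genes differed in response (16 without). Centring each array on its median turned the split of calls in VHL cells from 737 higher and 655 lower to 550 and 873. Directions turned only for small uncalled differences. FOS on deprivation in VHL cells gave -0.013 after quantile normalization, -0.012 after centring and -0.04 to 0.053 with an array left out. JUNB between the lines in control medium gave 0.02, 0.012 and -0.057 to 0.043 in turn. With an array left out, JUNB gave -0.024 to 0.108 in deprived medium and -0.01 to 0.122 for the difference in response, EGR3 -0.019 to 0.076 on deprivation in Vec cells, and FOS -0.01 to 0.15 between the lines in control medium. The difference in response of JUND was 0.092 with the mean of its probe sets. The causes were not tested. The number of arrays limits the precision. FOS and EGR3 are dim, with standard errors like those of the other members.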
